A study of Homo sapiens with 24 samples.

Results

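The YY factors and the INO80 complex genes are 10 genes, YY1, YY2, INO80, INO80B, INO80C, INO80D, INO80E, ACTR5, ACTR8 and NFRKB, taken as the rows whose Ensembl identifier maps to 1 of these symbols among the 61860 rows of each count table. All 10 were listed in all 4 tables and passed the filter on low counts in all 4 experiments. The cells were OE33, an established esophageal adenocarcinoma line, in 24 RNA-seq libraries that form 8 groups of 3. OE33 cells were grown under the skin of male BALB/c-nu nude mice, bought at 4 weeks of age. The mice were fed chow of high fat content (the HFD group) or ordinary chow (the ND group). They were fed for 8 weeks before injection and kept on the same diet after it, and tumors were removed 21 days after injection. Cultured OE33 cells were transfected with HA-tagged TRIM15 or the empty vector (EV) for 48 h, with shYY2 or shControl plasmids for 72 h, and with shFOXRED1 or its own shControl plasmids for 72 h. The groups thus share 1 cell line, and the labels name no other allele or agent. Nude mice lack T cells and keep other immune cells, plasmid transfection need not reach every cell, and the sources used here do not say which of the 2 shYY2 hairpins was sequenced or whether the 3 libraries of a group came from separate cultures or animals, so p-values measure the spread between these libraries.

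YY1 is a zinc finger protein that binds DNA and can raise or lower transcription, depending on its partners. YY2 is a paralog that arose from a YY1 transcript copied back into the genome within the gene MBTPS2, and it binds much the same DNA letters. INO80 is a remodeling enzyme that uses ATP to slide nucleosomes and to exchange the histone variant H2A.Z, and YY1 was found bound to it as a cofactor. INO80 is the ATPase and scaffold, ACTR5 and ACTR8 are actin-related subunits that couple it to nucleosomes, and INO80B, INO80C, INO80D, INO80E and NFRKB are accessory subunits.

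The sequences that define the knockdown are shown first, because the YY paralogs are alike and YY2 lies inside another gene. The coding sequences of YY1 and YY2 hold 1242 and 1116 bases in GENCODE 29, and 74.9% of 1115 aligned bases are identical. The longest run shared by any of 6 YY1 transcripts and the YY2 transcript is 27 bases, far below a read of the length used here. The designed targets of both shYY2 hairpins are given with the closest stretch of a YY1 transcript under each, and capitals mark the bases at which YY1 differs.
shYY2 target 1, YY2 coding bases 673 to 693: ccaggcattgatctctcagat
closest YY1 stretch: ccTggcattgaCctctcagat
shYY2 target 2, YY2 coding bases 568 to 588: cctaacgataacaatgaccaa
closest YY1 stretch: GctaacgatGTAaTtTacTaa
Target 1 thus differed from YY1 at 2 of 21 bases and target 2 at 7. Both targets matched transcripts of 2 genes exactly, YY2 and MBTPS2, in which an annotated transcript of MBTPS2 holds the YY2 letters. Every other member differed from either target at 7 or more bases. The 2 designed shFOXRED1 targets matched FOXRED1 alone.

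Annotation limits 3 members. In GENCODE 29, 39.9% of the exon bases of YY2 (chrX:21855987-21858740, GRCh38.p14, plus strand) lie under exons of MBTPS2 on the same strand. For INO80B (chr2:74455087-74457944, plus strand), 72% lie under the read-through gene INO80B-WBP1, which was listed with 1 count in 1 of 24 libraries and 0 in the others. For INO80E (chr16:29996241-30005791, plus strand), 23.5% lie under exons of HIRIP3 and DOC2A on the opposite strand. The overlaps of YY2 and INO80B are on the same strand, so counting by strand would not part their reads. For INO80E, whether reads were counted by strand is not given in the sources used here. Reads from all of those stretches thus cannot be told apart. Of the exon bases of ACTR5, ACTR8 and NFRKB, 0% lie under another gene.

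RefSeq promoter windows of GRCh38.p14, from 250 bases before to 50 bases after the start, were found for 9 members, all but YY2. The letters GCCATNTT, the core that YY factors are known to bind, were searched on both strands and occurred in 6.58% of 35116 windows. They occurred in 2 of the 9 member windows, those of INO80E and ACTR5, printed with the match in capitals.
INO80E, chr16:29996053-29996082, plus strand, match at -177 from the start: ttccagcgtccGCCATTTTtgtggcgtcac
ACTR5, chr20:38748465-38748494, plus strand, match at +16, on the reverse strand: acgcgcgctccAAGATGGCggcgaacgtgt
In the related gene lists described below, the letters occurred in 0 of 5 windows of other INO80 subunits and 6 of 14 of the SRCAP and TIP60-p400 complexes. They occurred in 0 of 13 windows of other remodeler ATPases and 3 of 14 of YY1 partner proteins. A match is a description of letters and does not show binding.

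Library totals ranged from 14299807 to 45994561 counts. The labelled treatments were visible in the genes they target: TRIM15 had 111, 130 and 181 counts with HA-TRIM15 and 0 in each EV library, and FOXRED1 had 10.1, 11.2 and 8.83 CPM with shFOXRED1 against 17.7, 17.2 and 17.3 with its shControl. The 6 epithelial markers of OE33 (EPCAM, CDH1 and keratins) summed to between 9898 and 14910 CPM in all 24 libraries. The 3 leukocyte markers summed to at most 0.507 CPM, the 3 endothelial markers to at most 0.845 CPM, the 3 adipocyte markers to at most 1.28 CPM and the 3 fibroblast markers to between 10.3 and 44 CPM, most of it COL1A1. In bulk RNA fewer cells of a type and less RNA per cell cannot be told apart. The markers are human genes and host cells of the tumors are mouse, so low sums do not show that host cells were absent. The cultured groups were OE33 cells alone. Fold changes below compare the 3 treated with the 3 control libraries of 1 experiment by the quasi-likelihood test of edgeR. An adjusted p is a Benjamini-Hochberg value across the whole table of tested genes, and below 0.05 a gene is said to have passed. CPM stands for counts scaled to a common library size with TMM (trimmed mean of M values).

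Compared per kb of exon, YY1 had the highest level of the 10 genes in all 8 groups, with group means from 16.6 (EV) to 18.4 CPM per kb (ND). Behind it stood the ATPase INO80, ACTR5, INO80E and NFRKB, which took ranks 2 to 5 in every group, and then ACTR8 at rank 6 and INO80D at rank 7. In the EV group the levels of ACTR5, INO80, INO80E and NFRKB were 13.9, 11.9, 10.6 and 8.5 CPM per kb, with no overlap between neighbours over the 3 libraries. In the ND group INO80E, INO80 and NFRKB, at 9.83, 9.62 and 9.17 CPM per kb, overlapped in that order. YY2, INO80B and INO80C stayed below 1.0 CPM per kb in group mean and shared ranks 8 to 10, and INO80B and YY2 overlapped in the HFD, ND, EV and shFOXRED1 groups and in the shControl of shFOXRED1.

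**Figure D1:**
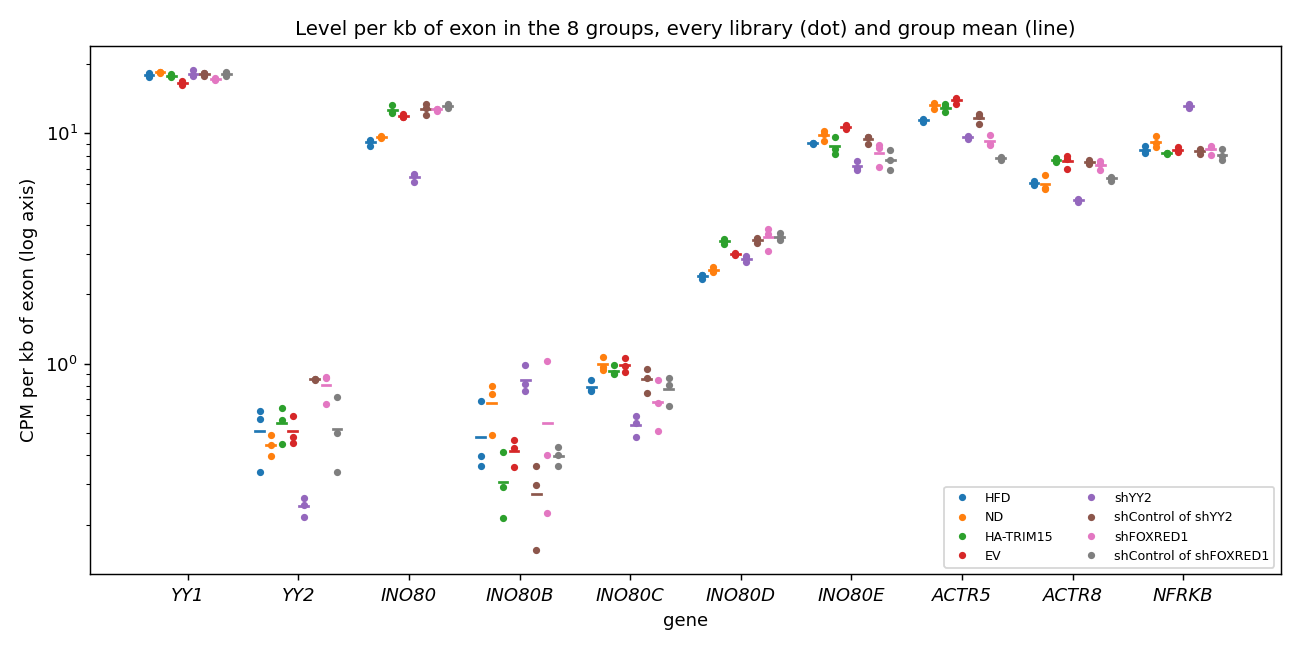
CPM per kb of exon on a log axis for the 10 genes, with a dot for each library, a line for each group mean and a color for each of the 8 groups. YY1 sits between 16.6 and 18.4 in all group means, while YY2, INO80B and INO80C lie below 1.0.

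The ratio of YY1 to YY2 per kb had a median of 21.3 over the shControl libraries of the YY2 experiment, and of 41.6 over the ND libraries. YY2 took 1.46% of the summed YY1 and YY2 counts in the former and 0.748% in the latter. How many YY1 reads the counting placed on YY2, if any, was not tested.

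The YY2 knockdown moved most of the genes. With shYY2, 9 of the 10 passed the test, 7 lower and 2 higher, where 75% of the 16006 genes tested passed, 38.1% lower and 36.8% higher. The share that passed was thus not far from that of all genes. The members' median log2 fold change was -0.34 and that of all genes tested was -0.01, and the median sizes without sign were 0.60 and 0.47. The groups did not overlap for 9 members, against 76.3% of all genes. Marker sums moved with the knockdown too, since the 6 epithelial markers summed to 13790 to 14230 CPM with shYY2 and 10700 to 11420 CPM with shControl, and the 3 fibroblast markers to 42 to 44 CPM and 10.3 to 11 CPM. COL1A1 gave nearly all of the latter, with COL1A2 and DCN at 0 to 2 counts in every library of this experiment. The epithelial markers did not rise together: of the 6, 2 passed higher and 4 lower, with a median log2 fold change of -0.16. The part of these shifts in the members' values was not tested.

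YY2, the target, had 11, 12 and 11 counts with shYY2 and 43, 40 and 46 with shControl, or 0.669, 0.720 and 0.595 CPM against 2.36, 2.36 and 2.32 CPM. The groups lay far apart, with means of 0.661 ± 0.063 and 2.35 ± 0.02 CPM (SD, n = 3). It fell by 1.82 on the log2 scale (SE 0.22, adjusted p = 1.3e-06), or 3.53-fold. MBTPS2, a protease of the Golgi that cleaves membrane-bound transcription factors and the gene in which YY2 lies, fell by 0.43 (SE 0.04, adjusted p = 2.85e-08). Its part in the YY2 value was not tested.

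YY1 did not move with its paralog. YY1 stood at 156, 154 and 164 CPM with shYY2 and at 160, 155 and 160 CPM with shControl. These groups overlapped, and the log2 fold change was 0.00 (SE 0.03, adjusted p = 0.99) with a 95% interval from -0.07 to 0.07. With the counts of YY1 and YY2 summed into 1 row, the value was -0.01 (adjusted p = 0.687), since YY1 holds nearly all of the sum.

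Of the 10 genes, the ATPase INO80 had the lowest fold change after YY2. Its levels were 43.1, 46.6 and 46.1 CPM with shYY2 and 90.3, 94.1 and 84.6 CPM with shControl, with every knockdown library below every control library. The log2 fold change was -0.98 (SE 0.05, adjusted p = 1.89e-11), a 1.98-fold decrease.

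Both actin-related subunits fell. ACTR8 was at 21.1, 20.5 and 20.9 CPM with shYY2 against 30.6, 31.2 and 30.1 CPM, and fell by 0.56 (SE 0.05, adjusted p = 1.32e-07). ACTR5 was at 24.9, 24.8 and 24.2 CPM against 31.0, 28.2 and 30.5 CPM, and fell by 0.28 (SE 0.06, adjusted p = 0.000323). In both genes every knockdown library was below every control library. The difference between these 2 falls was not itself tested.

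The accessory subunits moved in both directions. INO80E was at 42.8, 42.0 and 46.1 CPM with shYY2 against 54.5, 58.7 and 58.8 CPM and fell by 0.39 (SE 0.05, adjusted p = 2.08e-06). INO80E is among the genes the study picked by crossing its RNA-seq results for TRIM15 and YY2 with CUT&Tag binding data for YY2. The pick thus used these same samples in part, so the fall of INO80E here is not independent evidence. HIRIP3, on the opposite strand beside it, fell by 1.24 (SE 0.08, adjusted p = 8.75e-10), and DOC2A by 0.91 (SE 0.25, adjusted p = 0.0045), and how far their reads enter the INO80E count was not tested. HIRIP3 and DOC2A were chosen after their overlap was seen. INO80D was at 41.3, 42.2 and 39.7 CPM against 50, 48.2 and 50.6 CPM and fell by 0.27 (SE 0.04, adjusted p = 3.79e-05). INO80C, at a far lower level, had 40, 47 and 56 counts against 88, 75 and 75 and fell by 0.65 (SE 0.15, adjusted p = 0.00118).

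Only NFRKB and INO80B were called higher among the 10. NFRKB, a large accessory subunit, was at 84.3, 84.9 and 81.4 CPM with shYY2 against 53.5, 54.3 and 51.6 CPM. The groups lay apart by more than their spread, and NFRKB rose by 0.65 (SE 0.04, adjusted p = 2.12e-10), or 1.57-fold. It took rank 2 per kb in the shYY2 group and rank 5 in its shControl group. INO80B had 19, 25 and 23 counts against 10, 4 and 9, a log2 fold change of 1.62 (SE 0.31, adjusted p = 0.000217), with a 95% interval from 0.95 to 2.29. At these counts its size is known only roughly, and a filter of 10 counts in every library drops the gene. WBP1, the neighbour downstream with which INO80B shares a read-through transcript, rose by 1.68 (SE 0.09, adjusted p = 1.33e-10).

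**Figure D2:**
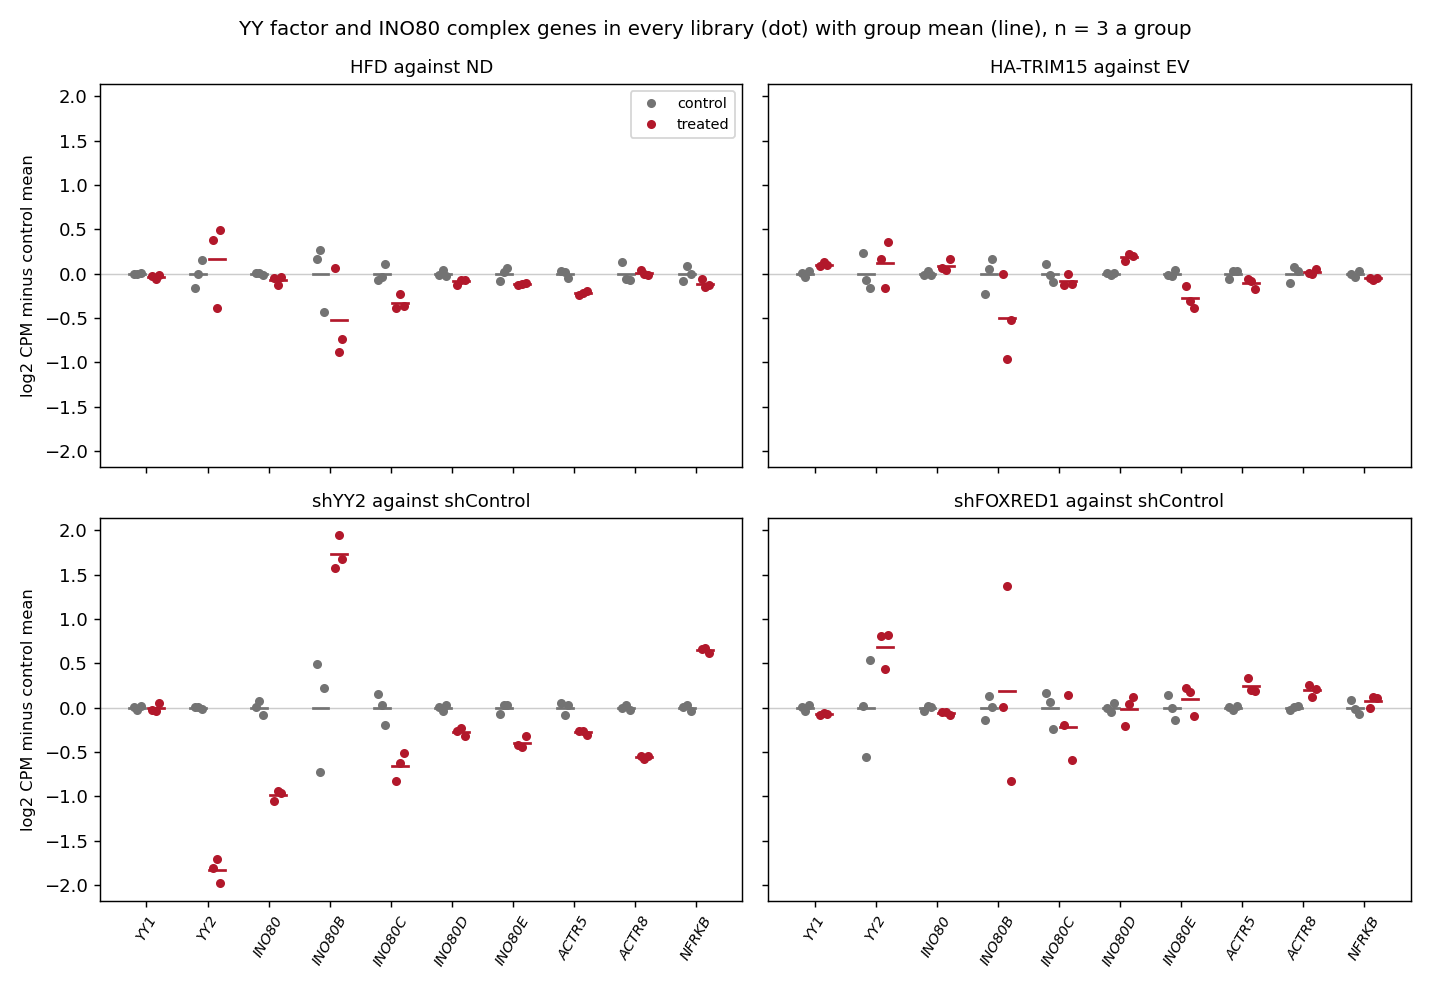
Log2 CPM minus the mean of the same experiment's control libraries for the 10 genes, in 4 panels, with gray dots for control and red dots for treated libraries and a line at each group mean (n = 3). In the shYY2 panel 7 genes lie below their controls and INO80B and NFRKB above, while YY1 overlaps.

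Subunits of the complex outside the 10 fell as well. Of 7 other INO80 subunits 6 were tested, and all 6 fell with shYY2, with a median of -0.91. Of all genes tested, 38.1% passed lower, and RUVBL1, RUVBL2 and ACTL6A also serve other complexes. UCHL5, a deubiquitinase of the complex, fell by 1.25 (SE 0.04, adjusted p = 7.65e-14), RUVBL1, an AAA+ ATPase, by 1.22 (SE 0.04, adjusted p = 6.18e-14), ACTL6A, an actin-related protein, by 1.05 (SE 0.03, adjusted p = 2.45e-13) and RUVBL2, the partner of RUVBL1, by 0.78 (SE 0.04, adjusted p = 1.67e-11). TFPT, the remaining subunit, had 0 to 68 counts over all libraries and was not tested. All 4 genes of H2A.Z, H2A.X and chaperones fell, with a median of -0.94. H2AZ1, which codes for the histone variant that the complex exchanges, fell by 0.95 (SE 0.03, adjusted p = 4.86e-13).

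Related complexes moved less evenly. Of 18 genes of the SRCAP and TIP60-p400 complexes, which insert H2A.Z, 11 fell and 4 rose, with a median of -0.34. MORF4L1 fell by 1.14 (SE 0.04, adjusted p = 2.04e-12) and BRD8 rose by 0.72 (SE 0.04, adjusted p = 3.59e-11). Of 16 other remodeler ATPases 8 fell and 3 rose, with a median of -0.09, between HELLS at -1.48 (SE 0.04, adjusted p = 6.01e-14) and CHD2 at 1.03 (SE 0.03, adjusted p = 4.9e-14). Of 16 YY1 partner proteins 11 fell and 0 rose, with a median of -0.28, led by SUZ12, a Polycomb subunit, at -0.85 (SE 0.04, adjusted p = 1.02e-11). Over all genes tested the median was -0.01, and 38.1% passed lower and 36.8% higher.

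In the xenografts the changes were small. With HFD, 4 of the 10 genes passed the test, all lower, where 49.5% of 17012 genes tested passed, 23.9% lower and 25.6% higher. The members' median log2 fold change was -0.10 and that of all genes -0.01. The groups did not overlap for 6 members, against 56.2% of all genes. The 3 fibroblast markers summed to 22.7 to 25.8 CPM in HFD tumors and 31.3 to 34.6 CPM in ND tumors, without overlap, and COL1A1, the one of them that was tested, fell by 0.33 (SE 0.06, adjusted p = 0.000254). The part of that shift in the members' values was not tested.

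ACTR5 was the clearest. It was at 28.8, 29.2 and 29.6 CPM in HFD tumors and at 34.6, 34.5 and 32.8 CPM in ND tumors, so all HFD libraries lay below all ND libraries. ACTR5 fell by 0.22 (SE 0.05, adjusted p = 0.00117), or 1.17-fold. INO80C had 3.86, 4.32 and 3.91 CPM against 4.80, 4.94 and 5.44 CPM and fell by 0.33 (SE 0.11, adjusted p = 0.02). INO80E was at 54.6, 55.3 and 55.4 CPM against 56.2, 60.6 and 62.4 CPM and fell by 0.12 (SE 0.04, adjusted p = 0.0391). HIRIP3 on the opposite strand fell by 0.48 (SE 0.07, adjusted p = 1.99e-05), while DOC2A, the other gene over INO80E, rose and passed the test. The median log2 fold change of HIRIP3 and DOC2A was 0.18, and 0.66 without sign, so DOC2A moved by more than HIRIP3. How far their reads enter the INO80E count was not tested. NFRKB was at 55.5, 52.2 and 53.1 CPM against 55.0, 61.5 and 57.7 CPM, which overlapped, and fell by 0.12 (SE 0.05, adjusted p = 0.0432).

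ACTR5 kept its call in all 6 fits that left out 1 library. INO80C lost it without HFD replicate 1 (adjusted p = 0.0678), HFD replicate 3 (0.0778) or ND replicate 3 (0.0689), at log2 fold changes of -0.30, -0.30 and -0.28. INO80E lost it without HFD replicate 1, 2 or 3 (adjusted p = 0.128, 0.0851 and 0.0937) and without ND replicate 2 or 3 (0.0989 and 0.163), at fold changes from -0.12 to -0.08. NFRKB lost it without the same 5 libraries (0.0518, 0.142, 0.14, 0.22 and 0.0681 in that order), at fold changes from -0.14 to -0.07, the last without ND replicate 2. These fits hold 5 libraries in place of 6.

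The other 6 genes did not pass. YY1 was at 158, 153 and 159 CPM in HFD tumors and 160, 161 and 161 CPM in ND tumors, a log2 fold change of -0.03 (SE 0.03, adjusted p = 0.45, 95% interval -0.10 to 0.04). YY2 had 36, 17 and 65 counts against 29, 58 and 29, and at 0.27 (SE 0.21, adjusted p = 0.307) its 95% interval ran from -0.18 to 0.73. Falls larger than 0.18 and rises larger than 0.73 lie outside that interval. MBTPS2 rose by 0.47 (SE 0.05, adjusted p = 3.12e-07) in the same tumors. INO80B was at -0.56 (SE 0.27, adjusted p = 0.096), and passed without HFD replicate 1 (-0.86, adjusted p = 0.0253) or ND replicate 3 (-0.69, adjusted p = 0.0433). INO80, INO80D and ACTR8 were at -0.07, -0.09 and 0.01.

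Among the other subunits of the complex, more rose than fell in the tumors. Of the 6 other INO80 subunits tested 4 rose and 1 fell, with a median of 0.17. UCHL5 rose by 0.33 (SE 0.04, adjusted p = 3.42e-06), ACTB by 0.27 (SE 0.03, adjusted p = 5.37e-06) and RUVBL1 by 0.22 (SE 0.04, adjusted p = 0.000251), while MCRS1 fell by 0.18 (SE 0.06, adjusted p = 0.0295). ACTB, RUVBL1, RUVBL2 and ACTL6A also serve other complexes or the cytoskeleton. Of the SRCAP and TIP60-p400 genes 9 of 18 fell and 0 rose (median -0.16), of the H2A.Z, H2A.X and chaperone genes 2 of 4 rose (median 0.09), of the other ATPases 4 rose and 3 fell of 16 (median -0.02), and of the YY1 partners 4 rose and 5 fell of 16 (median -0.04).

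With HA-TRIM15, 3 of the 10 genes passed the test, 2 higher and 1 lower, where 22.1% of 15745 genes tested passed, 12.5% higher and 9.53% lower. The members' median log2 fold change was -0.02 and that of all genes -0.01. The groups did not overlap for 5 members, against 37.7% of all genes. The 6 epithelial markers summed to 9898 to 10770 CPM with HA-TRIM15 and 10830 to 11070 CPM with EV. Of these markers 1 passed higher and 2 lower, with a median log2 fold change of -0.01. The 3 fibroblast markers summed to 10.9 to 11.4 CPM with HA-TRIM15 and 11.6 to 12.9 CPM with EV. The part of these shifts was not tested.

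INO80E fell in these cells. It was at 58.8, 52.1 and 49.4 CPM with HA-TRIM15 and at 64.1, 63.4 and 66.3 CPM with EV, with no overlap. It fell by 0.27 (SE 0.05, adjusted p = 0.00302), or 1.2-fold. The study's pick of this gene used these samples, together with the YY2 knockdown and CUT&Tag binding data for YY2. HIRIP3 on the opposite strand was at -0.03 (SE 0.07, adjusted p = 0.773) and DOC2A at -0.35 (SE 0.31, adjusted p = 0.465).

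INO80D rose and YY1 was at the threshold. INO80D was at 47.4, 50.1 and 49.2 CPM with HA-TRIM15 against 43.3, 42.4 and 43.0 CPM with EV, and rose by 0.19 (SE 0.04, adjusted p = 0.00684). YY1 was at 153, 158 and 154 CPM against 145, 141 and 147 CPM, with no overlap, and rose by 0.10 (SE 0.03, adjusted p = 0.0418), or 1.07-fold. That call of YY1 was lost without HA-TRIM15 replicate 2 or 3 (adjusted p = 0.142 and 0.0602) and without EV replicate 1, 2 or 3 (0.126, 0.19 and 0.0973), at fold changes from 0.09 to 0.11. It was also lost with no filter on counts (adjusted p = 0.137), with the DESeq2 Wald test (0.0656) and with the replicate number as a block (0.0534). INO80 was at 0.09 (SE 0.04, adjusted p = 0.128) and passed without HA-TRIM15 replicate 1 (0.11, adjusted p = 0.0456).

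YY2 did not pass with HA-TRIM15. Its counts were 32, 19 and 28 against 33, 30 and 33, and the groups overlapped at 1.52 ± 0.27 and 1.39 ± 0.21 CPM (SD, n = 3). The log2 fold change was 0.14 (SE 0.21, adjusted p = 0.687) with a 95% interval from -0.31 to 0.60. ACTR5, ACTR8, NFRKB, INO80C and INO80B were at -0.10, 0.02, -0.05, -0.08 and -0.41, and none of these 5 passed. Of the 6 other INO80 subunits tested 2 fell, MCRS1 by 0.29 (SE 0.05, adjusted p = 0.00052) and RUVBL2 by 0.24 (SE 0.05, adjusted p = 0.00295), and 0 rose (median -0.06). In the wider lists 3 rose and 3 fell of 18 SRCAP and TIP60-p400 genes (median 0.03), 2 of 4 H2A.Z, H2A.X and chaperone genes fell (median -0.11), 6 rose and 1 fell of 16 other ATPases (median 0.07), and 4 rose and 1 fell of 16 YY1 partners (median -0.00).

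With shFOXRED1, 1 of the 10 genes passed the test, ACTR5, which was higher, where 36.6% of 15730 genes tested passed, 16.8% higher and 19.7% lower. The members' median log2 fold change was 0.09 and that of all genes 0.01. The groups did not overlap for 4 members, against 46.7% of all genes. The 3 fibroblast markers summed to 39.3 to 42.4 CPM with shFOXRED1 and 23.4 to 24.8 CPM with its shControl, and COL1A1 rose by 0.71 (SE 0.08, adjusted p = 1.53e-06), a shift whose part was not tested. The library of shFOXRED1 replicate 3 stood apart, with a chi-square per gene of 8 and 6.93 against replicates 1 and 2, which differed by 2.15 from each other. Without it 2 of the 10 genes passed, ACTR5 (0.27, adjusted p = 0.0235) and INO80E (0.19, adjusted p = 0.0355), and INO80C moved from -0.18 to -0.03. ACTR5 was at 25.3, 22.9 and 22.8 CPM against 20.0, 19.6 and 20.3 CPM, with no overlap, and rose by 0.25 (SE 0.09, adjusted p = 0.0423). It lost this call without shFOXRED1 replicate 1 or 2 (adjusted p = 0.159 and 0.0677) and without shControl replicate 1, 2 or 3 (0.105, 0.128 and 0.0818). The shControl of shFOXRED1 held 20.0 ± 0.37 CPM of ACTR5 and the shControl of shYY2 29.9 ± 1.5 CPM (SD, n = 3), a gap that was not tested. ACTR8 was at 30.8, 28.2 and 30 CPM against 25.4, 26.1 and 26.2 CPM, with no overlap, at 0.20 (SE 0.08, adjusted p = 0.0687).

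The YY factors did not pass in this experiment. YY2 had 43, 34 and 35 counts with shFOXRED1 against 25, 14 and 29 with its shControl, and its groups overlapped at 2.38, 1.84 and 2.39 CPM against 1.38, 0.929 and 1.97 CPM. The log2 fold change was 0.63 (SE 0.30, adjusted p = 0.119, 95% interval -0.01 to 1.27), so that neither no change nor a more than 2-fold rise lies outside the interval. YY1 was at 149, 152 and 150 CPM against 158, 154 and 161 CPM, at -0.07 (SE 0.05, adjusted p = 0.308). INO80E was at 0.11 (SE 0.09, adjusted p = 0.386) with all 6 libraries. INO80, INO80C, INO80D and NFRKB were at -0.06, -0.18, -0.01 and 0.07, and INO80B, with 11, 29 and 5 counts against 10, 10 and 9, was at 0.51 (SE 0.50).

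Of the 6 other INO80 subunits tested with shFOXRED1, 4 fell and 0 rose (median -0.25), among them UCHL5 by 0.55 (SE 0.08, adjusted p = 4.79e-05) and RUVBL1 by 0.40 (SE 0.07, adjusted p = 0.00011). Of the H2A.Z, H2A.X and chaperone genes 3 of 4 fell (median -0.23). In the SRCAP and TIP60-p400 list 4 rose and 4 fell of 18 (median 0.06), in the other ATPases 4 and 4 of 16 (median 0.01), and in the YY1 partners 4 and 4 of 16 (median 0.03).

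**Figure D3:**
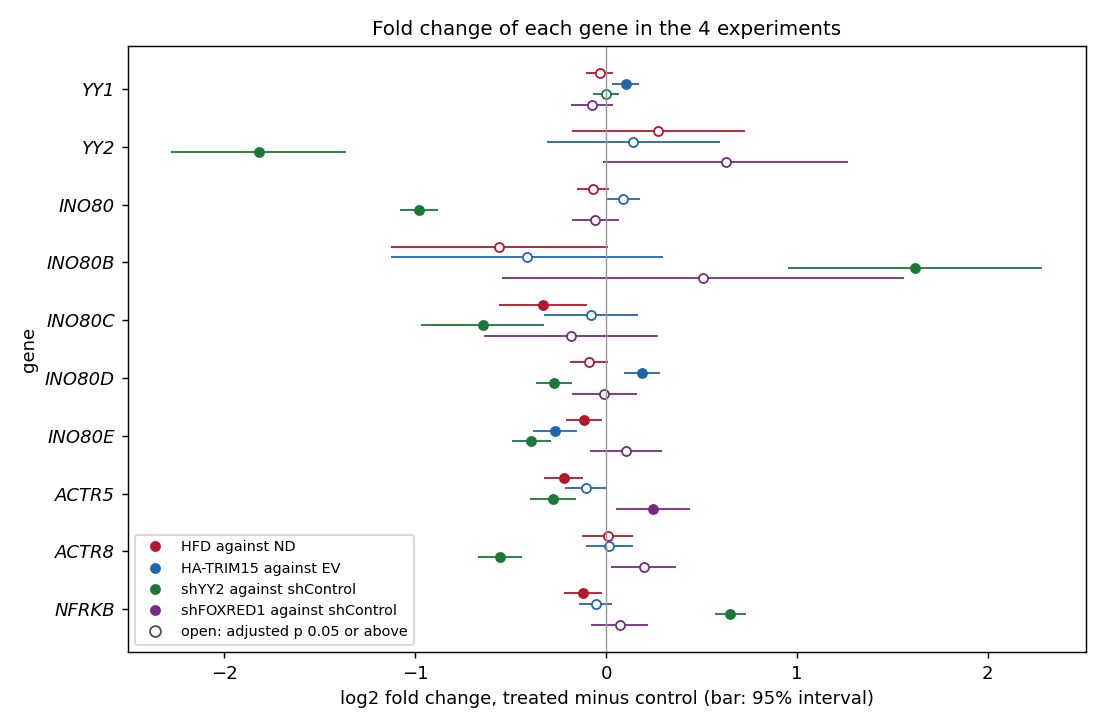
Log2 fold change, treated minus control, of the 10 genes in the 4 experiments, with bars for the 95% interval and filled dots where the adjusted p was below 0.05. The shYY2 values reach from -1.82 (YY2) to 1.62 (INO80B), while the widest intervals belong to YY2 and INO80B, the genes with the fewest counts.

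**Figure D4:**
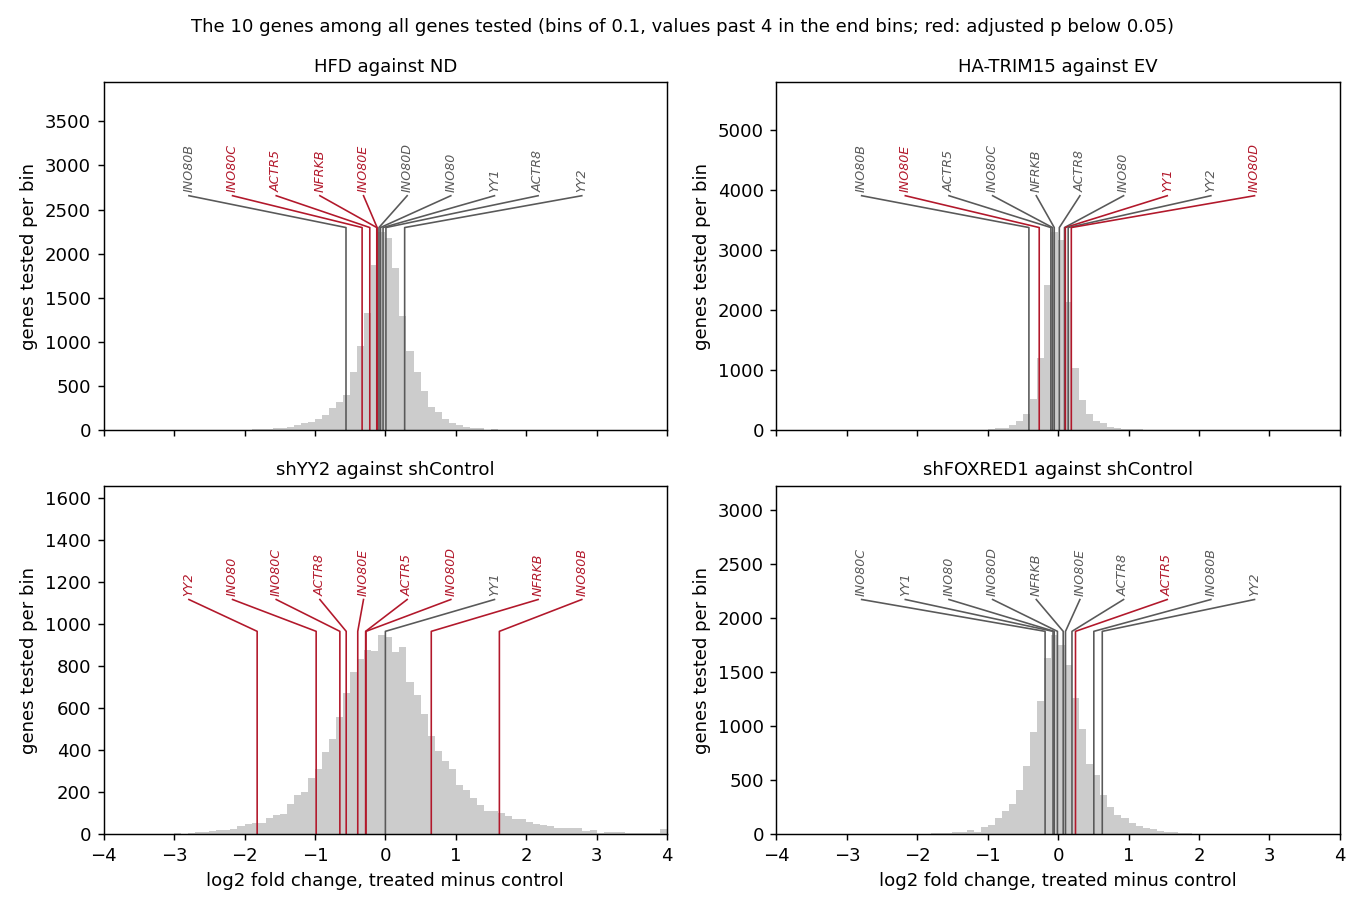
Histograms of the log2 fold changes of all genes tested in each experiment, in bins of 0.1, with lines at the 10 genes, red where the adjusted p was below 0.05. Most lines stand in the body of each histogram, and YY2 at -1.82 and INO80B at 1.62 in the shYY2 panel stand toward its tails.

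Differences between experiments were tested in 1 fit over all 24 libraries, for 6 pairs of experiments and 17980 genes. The shYY2 effect differed from the shFOXRED1 effect in 8 of the 10 genes (55.5% of all genes), from the HA-TRIM15 effect in 7 (57.4%) and from the HFD effect in 6 (61.9%). The HA-TRIM15 and shFOXRED1 effects differed in 5 (36.5%), the HFD and HA-TRIM15 effects in 3 (28.4%), and the HFD and shFOXRED1 effects in 2 (49.5%). INO80 and NFRKB had the narrowest errors among the large differences. INO80 was lower by 0.89 with shYY2 than with shFOXRED1 (SE 0.06, adjusted p = 2.82e-13), and NFRKB was higher by 0.62 (SE 0.07, adjusted p = 6.73e-09). ACTR5 was lower by 0.46 in the HFD effect than in the shFOXRED1 effect (SE 0.08, adjusted p = 1.75e-05).

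The group means of YY1 spanned 16.6 to 18.4 CPM per kb over all 8 groups, and those of YY2 spanned 0.241 (shYY2) to 0.856 CPM per kb (shControl of shYY2). The shControl groups of the 2 knockdown experiments held 2.35 ± 0.02 and 1.43 ± 0.52 CPM of YY2 (SD, n = 3), a gap between controls that was not tested and that lies beside the changes seen within experiments.

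**Figure D5:**
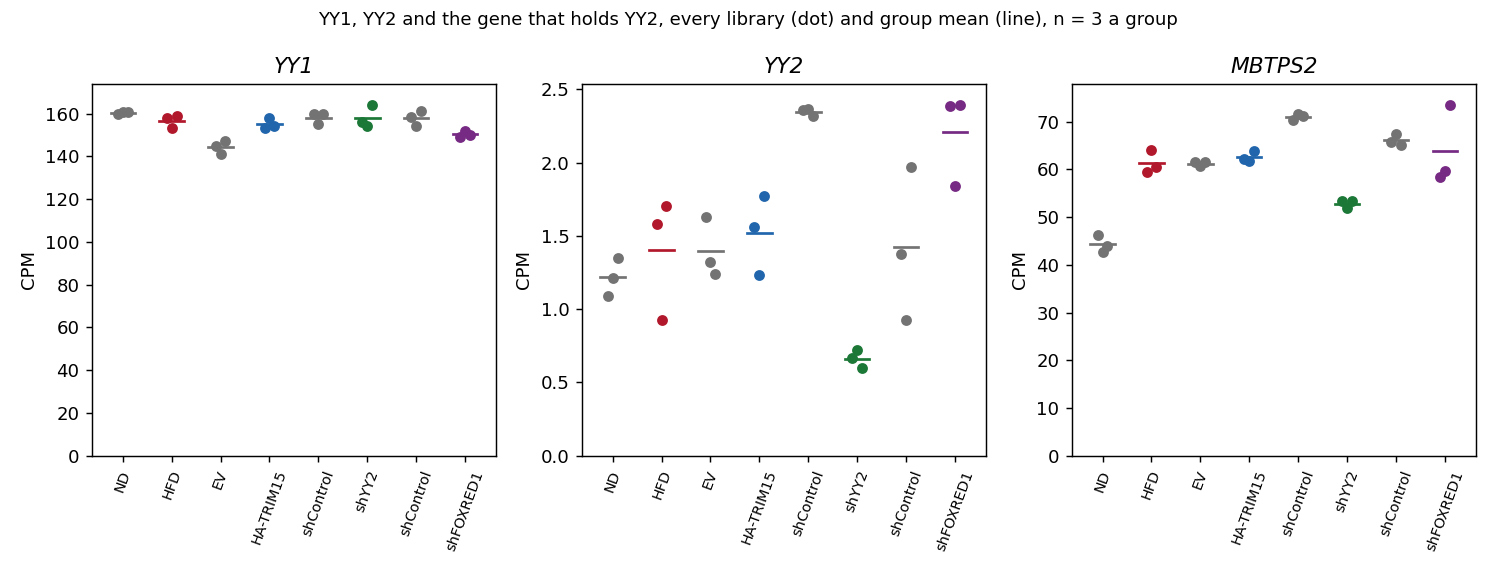
CPM of YY1, YY2 and MBTPS2 in every library, with gray dots for controls, colored dots for treated libraries and a line at each mean (n = 3). YY1 stays between 141 and 164 CPM, YY2 falls to 0.661 CPM with shYY2, and MBTPS2 falls with shYY2 and is higher with HFD than with ND.

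Likeness of pattern was measured by Pearson's r of log2 CPM minus the mean of each experiment's controls, over the 24 libraries, among 14518 other genes tested in all 4 experiments. For YY1 the most alike were TES (r = 0.897), AFF4 (r = 0.888) and CCDC50 (r = 0.882). For YY2 they were INVS (r = 0.964), E2F6 (r = 0.947) and HERC6 (r = 0.946), and for INO80E they were VPS25 (r = 0.928), SHB (r = 0.925) and MRPS26 (r = 0.919). The points share libraries and treatments, so these values are descriptions.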

How the data were processed

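For the 24 OE33 libraries the authors deposited 4 tables of whole-number read counts, not normalized, with 61860 Ensembl identifiers each. Libraries were made from polyA-selected RNA and sequenced paired-end. The aligner, the counter, the annotation and the use of strand are not given in the sources used here, and the submitters' processing notes list hg38 and mm10 without a role. Totals of 14299807 to 45994561 counts per library set the precision, which is low for YY2, INO80B and INO80C, and intervals cover the spread between libraries.

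Groups and replicates were taken from sample titles. Identifiers were named from the gene name and RefSeq tables, which name 99.8% of them. Each experiment was fitted alone in edgeR 4.0.16 (R 4.3.3): filterByExpr at a minimum of 10 counts and a total of 15, TMM scaling, then glmQLFit and glmQLFTest without covariates. P-values were adjusted by Benjamini-Hochberg across the table, with a threshold of 0.05. The SE of a log2 fold change was its size over the square root of F, and 95% intervals used the t quantile of the fit. Differences between experiments were contrasts in 1 fit with 8 group means. CPM per kb used the exon union of GENCODE 29. The alternatives were DESeq2 1.42.0 size factors, no filter, at least 10 counts in every library, the DESeq2 Wald test, a replicate block, leaving out each library, and summed counts of YY1 with YY2 and of INO80B with INO80B-WBP1. The fit of each experiment alone, with filterByExpr and TMM, was tested on simulated data. Those data had the same spread for every gene, few changed genes and effects larger than most of the members' effects. The simulation thus does not bear on the small effects reported here. The fit with 8 group means and the alternatives were not.

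The 10 genes and all lists were chosen with earlier results of these data known. Named genes were the 10 members, up to 4 genes of each list and experiment with the largest change past the threshold, and the genes checked for labels or overlap. HIRIP3 and DOC2A were added after values were seen, as genes over INO80E. Replicates of a group differed beyond sampling noise in all 24 pairs (chi-square per gene of 1.46 to 8). Exact tests of 3 against 3 libraries cannot go below p = 0.1 and were not used.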

Additional observations from a re-analysis of the deposited data

Results flagged for a closer look

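Results are given here where the effect on a gene differed between 2 experiments by the test of that difference (edgeR, adjusted over all genes tested, 60 combinations of gene and pair). Values are differences of log2 fold changes, the first experiment minus the second. YY2 differed by 2.06 between HFD and shYY2, by 1.93 between HA-TRIM15 and shYY2 and by -2.41 between shYY2 and shFOXRED1, which is the targeted gene of shYY2. INO80 differed by 0.88, 1.04 and -0.89 in the same pairs, by -0.15 between HFD and HA-TRIM15 and by 0.15 between HA-TRIM15 and shFOXRED1. NFRKB, the gene that rose with shYY2, differed by -0.80 between HFD and shYY2, by -0.74 between HA-TRIM15 and shYY2, by 0.62 between shYY2 and shFOXRED1 and by -0.18 between HFD and shFOXRED1. INO80B differed by -2.20 between HFD and shYY2 and by -2.08 between HA-TRIM15 and shYY2, at counts of 4 to 58 per library in those 3 experiments.

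ACTR8 differed by 0.53 between HFD and shYY2, by 0.54 between HA-TRIM15 and shYY2 and by -0.71 between shYY2 and shFOXRED1. ACTR5 differed by -0.46 between HFD and shFOXRED1, by -0.34 between HA-TRIM15 and shFOXRED1 and by -0.48 between shYY2 and shFOXRED1, so each difference sets the shFOXRED1 experiment against another. The shControl of shFOXRED1 also had the lowest ACTR5 group mean, 7.79 CPM per kb, against 9.24 with shFOXRED1 and 11.6 in the shControl of shYY2. That gap between controls was not tested. INO80D differed by -0.27 between HFD and HA-TRIM15, by 0.43 between HA-TRIM15 and shYY2, by 0.20 between HA-TRIM15 and shFOXRED1 and by -0.22 between shYY2 and shFOXRED1. INO80E differed by 0.24 between HFD and shYY2, by -0.37 between HA-TRIM15 and shFOXRED1 and by -0.46 between shYY2 and shFOXRED1. INO80C differed by 0.53 between HA-TRIM15 and shYY2. YY1 differed by -0.13 between HFD and HA-TRIM15, by 0.18 between HA-TRIM15 and shFOXRED1 and by 0.11 between shYY2 and shFOXRED1, all of them small against the YY2 values. The adjusted p of the YY1 differences were 0.0354, 0.00319 and 0.0422.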

How the results depend on the processing

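Of the 4 experiments, the count of the 10 genes that passed stayed within 1.5 times of its value under each alternative for HA-TRIM15 (3) and shYY2 (9), though for HA-TRIM15 the call of YY1 ended, and 2 passed, with no filter, the DESeq2 Wald test and the replicate block. For HFD, 4 passed, and 1 (ACTR5) passed with no filter on counts and 1 (ACTR5) with the DESeq2 Wald test. For shFOXRED1, 1 passed, and 0 passed with no filter and 0 with the DESeq2 Wald test. Differences between HFD and HA-TRIM15 were called in 3 genes, and in 1 with DESeq2 size factors, no filter or the DESeq2 Wald test. Differences between HFD and shFOXRED1 were called in 2 genes, in 1 under the same alternatives and in 4 with at least 10 counts in every library. Differences between HA-TRIM15 and shFOXRED1 were called in 5 genes and in 3 with no filter. Leaving out 1 library gave counts of 1 to 4 for HFD, 2 to 4 for HA-TRIM15, 9 to 9 for shYY2 and 0 to 2 for shFOXRED1, and for the differences 1 to 3 (HFD and HA-TRIM15), 5 to 7 (HFD and shYY2), 1 to 3 (HFD and shFOXRED1), 6 to 7 (HA-TRIM15 and shYY2), 3 to 5 (HA-TRIM15 and shFOXRED1) and 6 to 8 (shYY2 and shFOXRED1). No fold change of a called gene changed sign under any alternative run. The cause of these changes was not tested.

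Same-numbered libraries did not deviate together, with correlations of their deviations from -0.0275 to 0.097 over 12 pairs, so the numbers were not taken as pairs. With the replicate block, 3 genes passed for HFD (without NFRKB, adjusted p = 0.0626), 2 for HA-TRIM15, 9 for shYY2 and 2 for shFOXRED1 (ACTR5 and ACTR8). Depth limits YY2 and INO80B most, whose 95% intervals outside shYY2 span over 0.9 log2 units. INO80C also reached such a span with shFOXRED1, from -0.64 to 0.27.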
